A study of Mus musculus with 6 samples.

Results

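The genes described are the 4 FoxO transcription factor genes Foxo1, Foxo3, Foxo4 and Foxo6 and 6 genes linked to fasting. Those 6 are Cdkn1a, Gadd45a, Ddit4, Klf15, Txnip and Sesn1. All 10 were followed in mouse calf muscle with a muscle-targeted knockout of the deubiquitinase gene Usp21. They were picked by symbol as 10 of the 24532 genes in the deposited table, and each had a row there. RNA was measured in whole gastrocnemius of C57BL/6 mice aged 12 weeks. The 3 knockout mice were Ckmm-Cre; USP21 flox/flox animals, in which the muscle creatine kinase promoter drives Cre recombinase, so that cells other than muscle fibres should keep the gene. The 3 control mice were USP21 flox/flox without Cre, with the genotype entered as Litter, and no group carried Cre alone. Gene positions are those of RefSeq in GRCm38.p6. Feeding state and time of day at dissection are not in the labels, so whether the mice were fasted is unknown. Fasting is named here only as part of what these genes are known for.

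FoxO factors carry messages of scarcity to the genome. Insulin, acting through the kinase Akt, phosphorylates family members such as Foxo1 and keeps them in the cytoplasm. When insulin falls these members enter the nucleus. In muscle FoxO factors switch on ubiquitin ligases, autophagy genes and genes that spare glucose. The 6 other genes are known to respond to FoxO or to the same states of fasting, glucocorticoid exposure or stress, and several of them slow growth, either by halting the cell cycle or by restraining mTORC1, the kinase complex that promotes protein synthesis.

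Total counts lay between 48658436 and 67332846 per library. All 10 genes had at least 305 counts in every library and entered the test. Levels are given as CPM (counts scaled to library size) for comparisons of 1 gene across mice, and as FPKM (fragments scaled to depth and transcript length, computed by the authors) for comparisons between genes. Usp21, the targeted gene, stood at 19.3, 19.3 and 19.2 CPM in controls 1 to 3 and at 9.08, 7.20 and 7.47 CPM in knockouts 1 to 3. Some Usp21 RNA thus remained in every knockout sample of whole muscle. The log2 fold change of Usp21, knockout minus control as throughout, was -1.28 (SE 0.11, edgeR adjusted p = 0.0355). Without any one library the log2 value of Usp21 was -1.397 to -1.22, and its edgeR adjusted p was 0.186, 0.129, 0.0944 and 0.154 without control 1, control 2, control 3 and knockout 2. The labels do not say that mice of a group came from different litters, and the p-values below cover the spread among the 6 samples, which may in part be technical.

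No gene of the 10 passed an adjusted p of 0.05 by edgeR's quasi-likelihood test over all 14109 genes tested, of which 0.0567% passed, 0.0354% as higher. At an unadjusted p under 0.05, 3 stood higher in knockout muscle (Foxo1, Cdkn1a and Klf15) and 1 lower (Foxo4), where 6.56% of all genes tested stood higher and 5.07% lower, 11.6% in all. The groups did not overlap for Foxo1 and Cdkn1a, both higher in every knockout, and for Foxo4, lower in every knockout; such a gap was seen in 17.3% of all genes tested (8.38% with knockouts above, 8.87% with knockouts below). Of the 10 fold changes, 9 were positive and 1 negative, with a median of 0.28, against a median of -0.0037 over all genes tested, of which 49.3% were positive. DESeq2, with its Wald test, called Foxo1 and Cdkn1a higher, where it called 1.52% of its genes higher and 0.578% lower, 2.1% in all, and limma-voom called none of the 10.

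**Figure D1:**
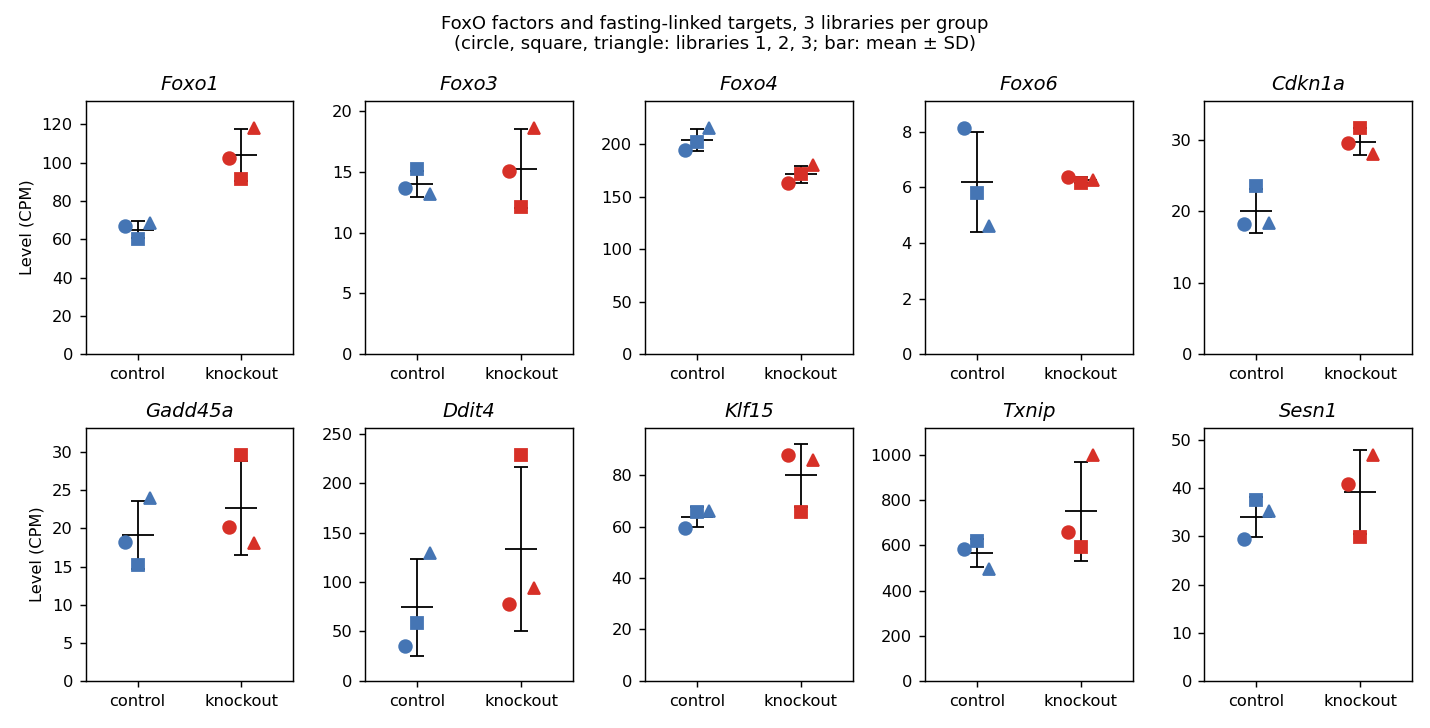
Level of each of the 10 genes in CPM on a linear axis from 0, with 1 point per library (circle, square and triangle for libraries 1, 2 and 3), control in blue and knockout in red, and the mean ± SD of 3 libraries in black. The groups lie apart for Foxo1, Cdkn1a and Foxo4 and overlap for the other 7 genes, and Ddit4 has the highest ratio of highest to lowest library within both groups.

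Among the factors, Foxo1 (chr3:52268337-52350109), the family member best known for driving fasting genes in muscle and liver, stood higher in knockout muscle. It was at 67.0, 59.9 and 68.3 CPM in controls 1 to 3 and at 102, 91.4 and 118 CPM in knockouts 1 to 3. The lowest knockout thus lay above the highest control, and the spread within each group was small. The fold was 1.60 (log2 fold change 0.68, SE 0.11, edgeR adjusted p = 0.167; DESeq2 adjusted p = 4.7e-05), with a 95% interval of 0.41 to 0.94 on the log2 scale. Foxo1 ranked 36 by p among the genes tested. Its log2 fold change stayed between 0.57 and 0.76 when single libraries were left out, while the edgeR adjusted p ran from 0.0597 (without knockout 3) to 0.694 (without control 1).

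Foxo4 (chrX:101254261-101260873), the most abundant FoxO messenger RNA here, stood lower in knockout muscle. It was at 195, 202 and 216 CPM in controls 1 to 3 and at 163, 171 and 180 CPM in knockouts 1 to 3. All 3 knockouts lay under all 3 controls, although the gap between the groups was narrower than that for Foxo1. The fold was 0.84 (log2 fold change -0.25, SE 0.081, edgeR adjusted p = 0.363), and DESeq2 did not call it (adjusted p = 0.134).

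Foxo3 (chr10:42181845-42276695), which drives muscle ubiquitin ligases and autophagy genes, showed no such separation. It was at 13.7, 15.2 and 13.2 CPM in controls 1 to 3 and at 15.1, 12.1 and 18.6 CPM in knockouts 1 to 3, so that knockout 2 was the lowest of all libraries and knockout 3 the highest. The log2 fold change was 0.12 (95% interval -0.25 to 0.49; edgeR adjusted p = 0.801), and it was -0.044 without knockout 3. Foxo6 (chr4:120267078-120287261), a family member studied mainly in brain and liver, was at 8.14, 5.80 and 4.61 CPM in controls 1 to 3 and at 6.37, 6.14 and 6.28 CPM in knockouts 1 to 3. The 3 knockouts fell inside the control range, with a log2 fold change of 0.021 (95% interval -0.45 to 0.50; edgeR adjusted p = 0.981). Its sign turned without control 2 (-0.029) or control 3 (-0.15).

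Per unit of transcript length, Foxo4 made up most of the FoxO messenger RNA in both groups and Foxo1 a larger part in knockout than in control muscle. In FPKM, Foxo4 averaged 65.3 ± 2.28 in controls and 52.3 ± 3.24 in knockouts, Foxo1 11.8 ± 0.468 and 18.1 ± 2.88, Foxo3 4.92 ± 0.567 and 5.12 ± 1.23, and Foxo6 2.48 ± 0.751 and 2.38 ± 0.124 (SD, n = 3 each). Foxo1 took 14.8%, 13.1% and 14.2% of the summed FPKM of the 4 genes in the 3 control libraries, and this share was 23.7%, 21.3% and 24.4% in the 3 knockout libraries. The mean share was 9.12 percentage points higher in knockouts and the groups did not overlap. An exact two-sided permutation test over libraries gave p = 0.1, the smallest that 3 against 3 allows. The share of Foxo4 was 77.2% ± 1.55 in controls and 67.3% ± 2.54 in knockouts (SD, n = 3 each); the shares sum to a whole, so the 2 are not independent. The summed FPKM of the family lay between 83.0 and 86.3 in controls and was 76.4, 71.4 and 85.7 in knockouts 1 to 3. The ranges overlapped through knockout 3 only. FPKM values were used as deposited, without the scaling between libraries that CPM received, so they compare the groups less closely than CPM.

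**Figure D2:**
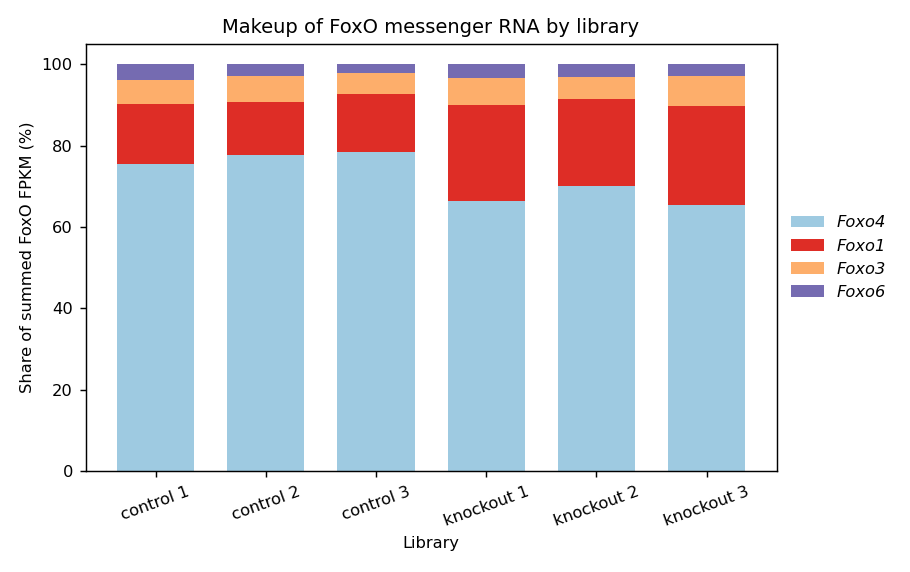
Share of the summed FPKM of Foxo1, Foxo3, Foxo4 and Foxo6 taken by each gene (vertical axis, percent from 0) in each of the 6 libraries (horizontal axis). The red Foxo1 segment is 13.1% to 14.8% of the bar in controls and 21.3% to 24.4% in knockouts, with the pale blue Foxo4 segment correspondingly shorter.

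The genes whose pattern over the 6 libraries lay nearest to that of Foxo1 were Adamts20, a secreted metalloprotease, Spon1, a matrix protein, and Rnf144b, a ubiquitin ligase. Nearness was the root-mean-square difference of log2 CPM after each gene was centred on its mean, among 9487 genes with at least 5 CPM. It was 0.082, 0.084 and 0.10 for the 3 genes, where the centred values of Foxo1 itself had a root mean square of 0.36. Rnf144b was at 63.4, 54.4 and 68.2 CPM in controls 1 to 3 and at 83.5, 79.5 and 99.2 CPM in knockouts 1 to 3, lowest in control 2 and highest in knockout 3, as Foxo1 was. None of the 3 passed edgeR's adjusted threshold (Spon1 0.241, Adamts20 0.241, Rnf144b 0.291), and DESeq2 called all 3 higher, as it did Foxo1 (DESeq2 adjusted p = 0.00437, 0.0133 and 0.0196). The 3 were picked for likeness to Foxo1 in these same 6 libraries. Their shared order, direction and DESeq2 calls therefore add no separate support. Nothing about shared control can be read from 6 libraries.

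The sequences before the transcription start are shown for Foxo1 and Cdkn1a, the 2 genes that lay higher in every knockout, and for Txnip and Klf15, whose windows hold known types of binding letters. Each is the 250 bases before a RefSeq start in GRCm38.p6, the assembly that mm10 names, written 5′ to 3′ on the strand of the gene. Foxo1 is chr3:52268087-52268336, the upstream start of Cdkn1a is chr17:29090729-29090978, Txnip is chr3:96557707-96557956 and Klf15 is chr6:90462326-90462575, all on the plus strand. Capitals mark matches to 4 motifs on either strand.
Foxo1: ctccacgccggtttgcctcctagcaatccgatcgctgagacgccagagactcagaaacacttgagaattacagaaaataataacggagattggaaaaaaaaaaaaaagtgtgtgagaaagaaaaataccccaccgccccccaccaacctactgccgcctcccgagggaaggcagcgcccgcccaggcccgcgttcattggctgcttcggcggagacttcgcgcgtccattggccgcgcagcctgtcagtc
Cdkn1a: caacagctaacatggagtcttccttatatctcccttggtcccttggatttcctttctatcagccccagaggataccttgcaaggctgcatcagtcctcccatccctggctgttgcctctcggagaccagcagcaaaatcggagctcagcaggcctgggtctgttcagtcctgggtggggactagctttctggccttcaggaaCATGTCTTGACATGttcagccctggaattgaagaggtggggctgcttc
Txnip: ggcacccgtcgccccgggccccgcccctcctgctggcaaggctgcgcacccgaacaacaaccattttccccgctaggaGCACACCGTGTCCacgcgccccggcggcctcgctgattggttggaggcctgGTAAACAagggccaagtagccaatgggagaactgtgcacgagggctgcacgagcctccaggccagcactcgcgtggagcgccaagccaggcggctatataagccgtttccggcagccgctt
Klf15: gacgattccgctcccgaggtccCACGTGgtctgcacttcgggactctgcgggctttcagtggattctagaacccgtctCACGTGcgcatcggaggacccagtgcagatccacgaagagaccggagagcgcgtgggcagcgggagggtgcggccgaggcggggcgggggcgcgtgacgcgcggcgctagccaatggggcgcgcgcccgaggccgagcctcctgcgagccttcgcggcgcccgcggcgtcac

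The motifs were TGTTTAC, the core that FoxO factors bind; CACGTG, the E-box; a glucocorticoid response element; and a pair of cores as in p53 sites, whose letters were set after the Cdkn1a sequence was seen. In Txnip the capitals are, in order, a glucocorticoid-type match beginning 172 bases before the start and a FoxO core, read as GTAAACA on this strand, 121 bases before it. Both capitals in Klf15 are E-boxes, 228 and 172 bases before a RefSeq start that lies inside the gene span given for Klf15 and not at its first base, and those in Cdkn1a are the p53-type pair, 48 bases before the upstream start. Foxo1 holds none of the 4. Of 32851 RefSeq windows of the same length, 3.17% held the FoxO core, 6.02% the E-box, 0.387% the glucocorticoid-type match and 0.49% the p53-type pair. Windows of 8 of the 10 genes, 10 windows in all, were searched, and each motif was in 1 of them. Where a gene has several starts the counts do not say which was used, and a match is a run of letters and not a bound site.

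Of the targets that slow the cell cycle, Cdkn1a stood higher in knockout muscle and Gadd45a overlapped. Cdkn1a (chr17:29090979-29100722) encodes p21, an inhibitor of cyclin-dependent kinases that FoxO factors and p53 both induce. It was at 18.3, 23.6 and 18.3 CPM in controls 1 to 3 and at 29.6, 31.7 and 28.0 CPM in knockouts 1 to 3. The 3 knockouts were closely grouped above the highest control, which was control 2. The fold was 1.48 (log2 fold change 0.57, SE 0.12, edgeR adjusted p = 0.241; DESeq2 adjusted p = 0.00551), and without single libraries the log2 value stayed between 0.50 and 0.69.

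Gadd45a (chr6:67035096-67037407), a growth arrest gene induced by DNA damage, fasting and denervation, was at 18.2, 15.3 and 24.0 CPM in controls 1 to 3 and at 20.3, 29.7 and 18.1 CPM in knockouts 1 to 3. Control 3 exceeded 2 of the 3 knockouts, and knockout 2 alone stood above every control. The log2 fold change of 0.24 (95% interval -0.28 to 0.77; edgeR adjusted p = 0.715) came to -0.00088 without knockout 2.

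The restraints on mTORC1, Ddit4 and Sesn1, did not separate the groups. Ddit4 (chr10:59949675-59951770) encodes a short-lived protein made in response to glucocorticoids, low oxygen and energy stress. It was at 35.1, 58.7 and 129 CPM in controls 1 to 3 and at 78.0, 229 and 93.9 CPM in knockouts 1 to 3. It was the most uneven of the 10 genes in both groups, with a ratio of highest to lowest of 3.67 among controls and 2.93 among knockouts; control 3 and knockout 2 stood highest. Its fold of 1.80 was the largest of the 10 and its spread was too large for the test (log2 fold change 0.85, SE 0.55, edgeR adjusted p = 0.603). The log2 value was 0.21 without knockout 2 and 1.51 without control 3. In knockout 2 the summed level of 4 red blood cell markers was 1010 CPM, against 191 to 274 CPM in the other 5 libraries, and the summed level of 6 adipocyte markers was 76.0 CPM in knockout 2 and 64.4 CPM in control 3, against 16.4 to 32.4 CPM in the other 4. The part of either in the level of Ddit4 was not tested.

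Sesn1 (chr10:41810574-41908436), a sestrin that responds to p53 and FoxO and limits mTORC1 when amino acids are scarce, was at 29.5, 37.6 and 35.2 CPM in controls 1 to 3 and at 41.0, 29.8 and 47.0 CPM in knockouts 1 to 3. Knockouts 1 and 3 lay above all controls and knockout 2 close to the lowest control. The log2 fold change was 0.20 (95% interval -0.20 to 0.60; edgeR adjusted p = 0.684), and it was 0.054 without knockout 3 and 0.37 without knockout 2.

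The metabolic targets, Klf15 and Txnip, were highest in knockout libraries but overlapped with controls through knockout 2. Klf15 (chr6:90461043-90491803), a transcription factor induced by glucocorticoids that promotes amino acid breakdown, was at 59.4, 65.6 and 66.1 CPM in controls 1 to 3 and at 88.0, 65.8 and 85.9 CPM in knockouts 1 to 3. Knockouts 1 and 3 stood well above the controls, while knockout 2 lay between controls 2 and 3. The log2 fold change was 0.33 (SE 0.12; 95% interval 0.039 to 0.61; edgeR adjusted p = 0.385), and it ran from 0.25 (without knockout 1) to 0.45 (without knockout 2).

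Txnip (chr3:96557957-96561857), which binds thioredoxin and limits glucose uptake, had the highest FPKM of the 10 genes. It was at 583, 621 and 496 CPM in controls 1 to 3 and at 659, 593 and 1002 CPM in knockouts 1 to 3. Knockout 3 stood far above the other 5 libraries, and knockout 2 was inside the control range. The log2 fold change of 0.41 (SE 0.20; edgeR adjusted p = 0.489) was 0.14 without knockout 3. Without knockout 2 it was 0.55.

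**Figure D3:**
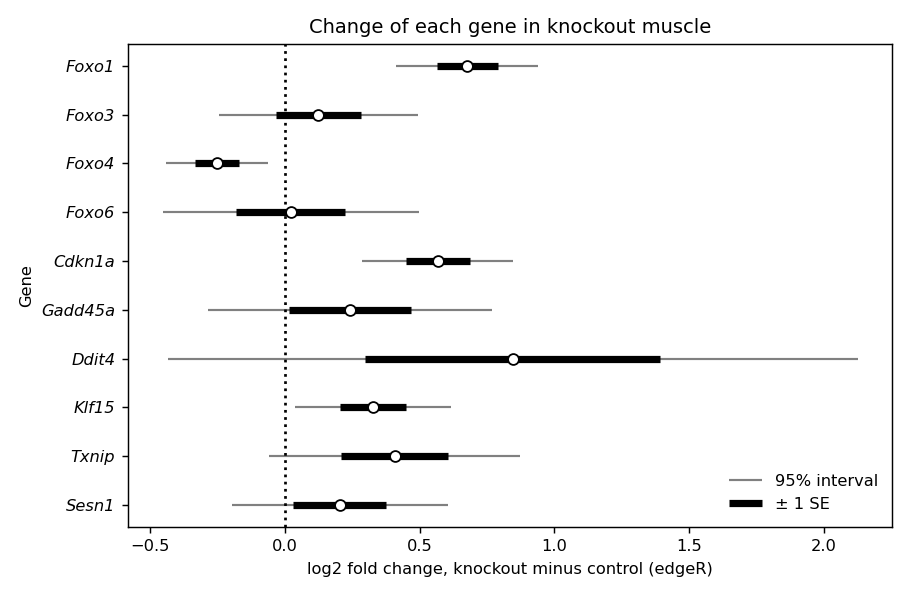
Log2 fold change of each gene (horizontal axis, knockout minus control, by edgeR), with 1 SE as a thick bar and the 95% interval, unadjusted for the number of genes, as a thin line; each value rests on 3 libraries a group. The intervals of Foxo1, Cdkn1a and Klf15 lie above 0 and that of Foxo4 below it, and that of Ddit4, from -0.43 to 2.13, is the widest.

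Ordered by FPKM in controls, Txnip (205 ± 31.2) came first, followed by Foxo4 (65.3 ± 2.28), Ddit4 (44.0 ± 27.2), Klf15 (28.1 ± 1.89), Gadd45a (15.7 ± 3.00), Sesn1 (12.3 ± 1.55), Foxo1 (11.8 ± 0.468), Cdkn1a (10.6 ± 2.01), Foxo3 (4.92 ± 0.567) and Foxo6 (2.48 ± 0.751; SD, n = 3). Among neighbours in this order, Foxo4 and Ddit4, Ddit4 and Klf15, Gadd45a and Sesn1, Sesn1 and Foxo1, and Foxo1 and Cdkn1a overlapped in their control ranges, and the other neighbours did not. Foxo4 lay above Klf15, and Gadd45a above Foxo1 and Cdkn1a, in every control. In knockout muscle Foxo1 moved up the order to 18.1 ± 2.88, with Gadd45a next at 17.7 ± 4.13 and overlapping it (SD, n = 3). These levels depend on the transcript lengths the authors used.

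Among the knockouts the genes did not follow 1 order. Knockout 2 was the lowest of the 3 for 6 genes (Foxo1, Foxo3, Foxo6, Klf15, Txnip and Sesn1) and the highest for 3 (Cdkn1a, Gadd45a and Ddit4). Knockout 3 was the highest for 5 genes (Foxo1, Foxo3, Foxo4, Txnip and Sesn1). As deviations from each gene's mean log2 CPM over the 6 libraries, knockout 2 stood at 1.39 for Ddit4 and 0.54 for Gadd45a, and at -0.26 for Foxo3 and -0.28 for Sesn1. Knockout 3 stood at 0.64 for Txnip, 0.36 for Foxo3 and 0.38 for Sesn1. With 3 knockouts these orders are descriptions and were not tested.

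**Figure D4:**
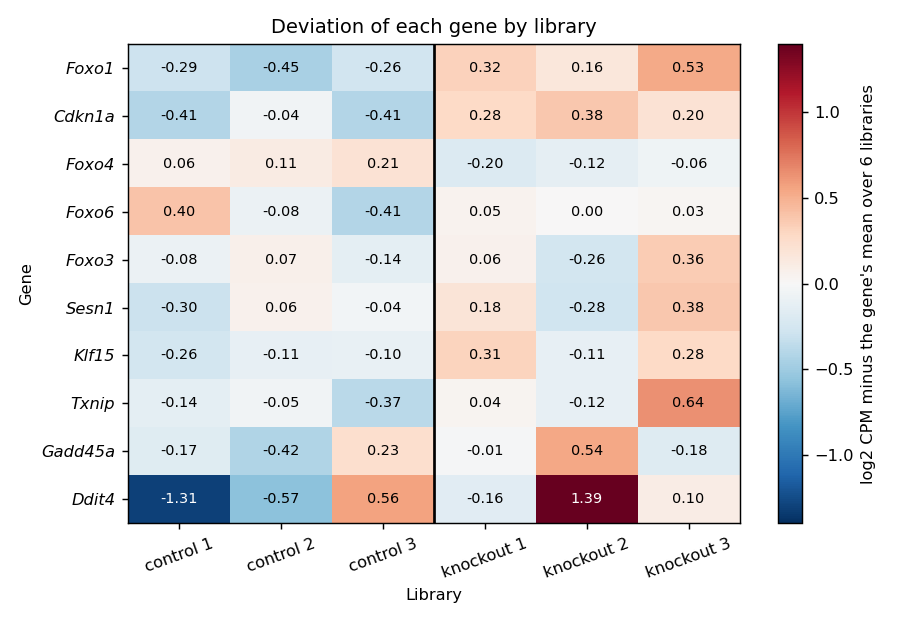
Deviation of each gene's log2 CPM from its own mean over the 6 libraries, as colour and number, with libraries in columns and genes in rows (red above the mean, blue below). Foxo1 and Cdkn1a are below 0 in all controls and above 0 in all knockouts, Foxo4 the reverse, and Ddit4 spans -1.31 in control 1 to 1.39 in knockout 2.

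Among 26 regulators of FoxO activity, none was called by edgeR (0 of 26 at an adjusted p under 0.05), and the median log2 fold change was 0.027. At an unadjusted p under 0.05, 2 stood higher and 1 lower, where 6.56% and 5.07% of all genes tested did. The groups did not overlap for 2 with knockouts above and 2 with knockouts below (8.38% and 8.87% of all genes tested). The 1 that stood lower was Igf1r (log2 fold change -0.26, SE 0.098, edgeR adjusted p = 0.384), with every knockout under every control. The 2 with the smallest p were Irs2 and Sgk1. Irs2, an insulin receptor substrate that FoxO factors also induce, was at 21.3, 25.2 and 15.0 CPM in controls 1 to 3 and at 50.4, 50.5 and 22.5 CPM in knockouts 1 to 3, where knockout 3 fell inside the control range (1.00, SE 0.32, edgeR adjusted p = 0.363; DESeq2 adjusted p = 0.0414). Sgk1, a kinase related to Akt that can phosphorylate FoxO factors, was at 174, 241 and 318 CPM in controls 1 to 3 and at 336, 407 and 342 CPM in knockouts 1 to 3, so every knockout exceeded every control (0.56, SE 0.21, edgeR adjusted p = 0.383).

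Among 25 other genes that FoxO factors are known to drive in muscle, edgeR called 1, Pdk4, as higher. Pdk4 is the kinase that restrains glucose oxidation through pyruvate dehydrogenase. Pdk4 was at 329, 541 and 379 CPM in controls 1 to 3 and at 1553, 1718 and 1968 CPM in knockouts 1 to 3 (log2 fold change 2.07, SE 0.20, edgeR adjusted p = 0.0355), and the lowest knockout was far above the highest control. The log2 value of Pdk4 stayed between 1.92 and 2.29 without single libraries, but the call was lost without control 1, control 3, knockout 1 or knockout 2 (edgeR adjusted p = 0.186, 0.0961, 0.126 and 0.163). The other 24 were not called by edgeR. At an unadjusted p under 0.05, 3 stood higher (Pdk4, the ubiquitin ligase gene Trim63 and the coactivator gene Ppargc1a) and 3 lower (Bnip3l, Mul1 and Cited2). Of all genes tested 6.56% stood higher at that p and 5.07% lower. The groups did not overlap for 3 genes with knockouts above and 4 with knockouts below (8.38% and 8.87% of all genes tested). The list's median was 0.057 with 15 positive and 10 negative values. DESeq2 called Pdk4, Trim63 and Ppargc1a higher and none lower. Values of the 10 genes and of this list come from 1 set of libraries, and both lists were chosen with earlier results known.

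Cdkn1a, Gadd45a and Sesn1 are also p53 targets, and Ddit4 and Klf15 respond to glucocorticoids. Of 15 further p53 genes 14 were tested, with 7 positive and 7 negative values, a median of -0.0024, 1 at an unadjusted p under 0.05 and none called by edgeR or DESeq2. Trp53inp1, a stress protein of the p53 pathway, averaged 18.6 ± 4.44 CPM in control and 25.7 ± 3.57 CPM in knockout muscle (SD, n = 3 each; 0.47, edgeR adjusted p = 0.405), and the death gene Bbc3 at 1.43 ± 0.102 and 0.934 ± 0.228 CPM (-0.61, edgeR adjusted p = 0.435). Of 12 glucocorticoid response genes, the receptor gene among them, all 12 had positive values, with a median of 0.34. At an unadjusted p under 0.05, 5 stood higher, while none was called by edgeR and 2 were called by DESeq2. Of all genes tested 49.3% were positive, and 6.56% stood higher and 5.07% lower at that p. DESeq2 called 1.52% of its genes higher. The groups did not overlap for 4 of the 12, with knockouts above (8.38% of all genes tested). The 2 that DESeq2 called were the metal-binding Mt1 and Mt2. Mt1 was at 15.2 to 22.8 CPM in control muscle and at 151, 107 and 35.8 CPM in the knockouts. Mt2 was at 8.70 to 17.9 CPM and at 153, 108 and 31.1 CPM.

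**Figure D5:**
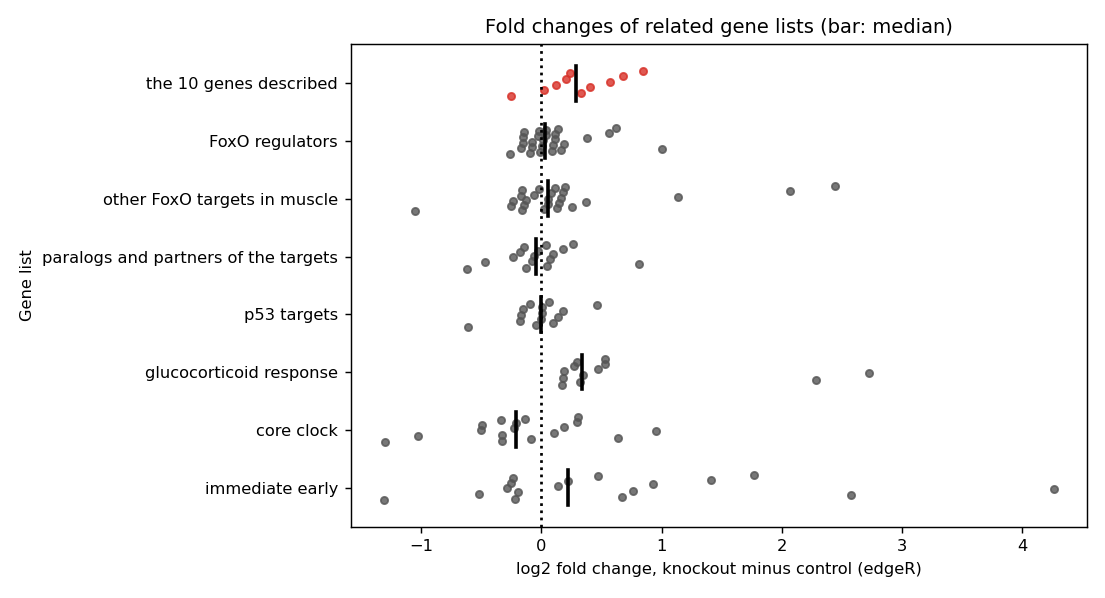
Log2 fold change (horizontal axis, knockout minus control) of each tested gene, 1 point a gene, for the 10 genes described (red) and 7 related lists (grey), with the list median as a black bar; vertical spread inside a list has no meaning. The median is 0.28 for the 10 genes, 0.34 for glucocorticoid genes and within 0.06 of 0 for FoxO regulators, other FoxO targets, paralogs and p53 targets.

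The other lists and markers moved as follows beside these genes. Of 17 core clock genes 6 were positive and 11 negative (median -0.21), with Bhlhe40 at 221 ± 54.1 and 89.6 ± 10.1 CPM and Nr1d1 at 242 ± 78.7 and 119 ± 8.35 CPM in control and knockout muscle (SD, n = 3 each), neither called by edgeR (adjusted p = 0.121 and 0.241) and both called lower by DESeq2 (5.23e-10 and 0.00053). At an unadjusted p under 0.05, 3 clock genes stood higher and 5 lower by edgeR, and DESeq2 also called Per2 and Nfil3 higher. Of all genes tested 49.3% were positive, and 6.56% stood higher and 5.07% lower at that p. DESeq2 called 1.52% of its genes higher and 0.578% lower. These shares are also the measure for the immediate early genes and the markers that follow. The summed level of 17 immediate early genes was 601 to 710 CPM in the control libraries; it was 1430, 1424 and 684 CPM in knockouts 1 to 3, so knockout 3 lay with the controls; Nr4a3 alone reached 388, 302 and 14.1 CPM there, and Myc 9.99, 9.97 and 7.36 CPM. Of these immediate early genes 7 stood higher and 2 lower at an unadjusted p under 0.05 and none was called by edgeR, while DESeq2 called Nr4a1, Nr4a3, Myc and Maff higher and Dusp1 lower. The 12 skeletal muscle markers were present in every library, with a sum of 187000 to 230500 CPM in control and 212100 to 245200 CPM in knockout muscle. All 7 fibroblast markers were positive (sum 1490 to 2288 CPM in control and 2237 to 2675 CPM in knockout muscle), as were 4 of 7 endothelial (511 to 605 and 567 to 622 CPM), 4 of 6 smooth muscle and pericyte (486 to 608 and 507 to 601 CPM), 5 of 6 leukocyte (34.96 to 59.7 and 38.4 to 58.5 CPM), 4 of 6 adipocyte and 3 of 4 red blood cell (levels given above), 3 of 7 satellite cell (55.2 to 57.2 and 44.3 to 60.0 CPM) and 1 of 6 Schwann cell markers (111 to 273 and 95.02 to 357 CPM). None of these markers was called by edgeR and none was at 0 in all 6 libraries. DESeq2 called the collagen gene Col3a1, a fibroblast marker, higher (242 ± 33.0 CPM in control and 371 ± 66.6 CPM in knockout muscle, SD, n = 3 each; DESeq2 adjusted p = 0.00974) and the adipocyte hormone Lep lower (4.94 ± 3.21 and 1.45 ± 0.59 CPM; DESeq2 adjusted p = 0.0458), and 3 of the 7 fibroblast markers stood higher at an unadjusted p under 0.05 by edgeR. Their part in the levels of the 10 genes was not tested, and in whole muscle more cells of a type and more RNA per cell cannot be told apart.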

How the data were processed

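Poly(A)-selected, strand-preserving libraries were made from total RNA of 6 gastrocnemius muscles, per the labels' protocols. The counts were deposited unnormalized, per the file headers; per the file headers, the authors also deposited FPKM and TPM values. The submitters' processing notes name StringTie 1.3.4d, Bowtie2 2.3.4.1, FastQC 0.11.7, bcl2fastq 2.20.0 and mm10, without roles; the counting step and its strand setting are not stated there. Columns of samples outside the series numbered 0. Libraries of a group differed by more than sampling noise (lowest chi-square over its degrees of freedom 35.4).

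All 24532 genes entered edgeR 4.0.16 (R 4.3.3): filterByExpr (minimum count 10, leaving 14109 genes), TMM scaling, then the quasi-likelihood test, called at a Benjamini-Hochberg adjusted p under 0.05. CPM used the TMM factors and log2 CPM a prior count of 2. The fit was also run on simulated counts with known changes. Those counts were drawn independently for each gene and library. They cannot show how the fit handles effects that the genes of a library share. Alternatives were other scalings and filters, DESeq2 1.42.0, limma 3.58.1 (voom, or log2 of FPKM plus 1 or 0.1), TPM or counts for the FoxO share, a replicate block and leaving out each library. Promoter sequences and coordinates are RefSeq's (GRCm38.p6).

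The 10 genes and the lists were chosen with earlier results of these data known. Genes named are the 10, Usp21, of each related list up to 6 that were called, or the 2 of lowest p where none was, and the 3 nearest to Foxo1. Further genes that DESeq2 alone called in a list, Arrdc4, Sesn2 and the antisense partners were named after their values were seen.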

Additional observations from a re-analysis of the deposited data

How the results depend on the processing

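None of the 10 genes was called by edgeR under the other scalings and filters, with the replicate block, or without any single library, nor by limma-voom or limma on FPKM; DESeq2's Wald test called 2. Over all genes, 8 were called; DESeq2 called 290, limma-voom 5, and limma on log2 of FPKM plus 1 or plus 0.1 called 1 each. Without single libraries the count ran from 1 (without control 3 or knockout 2) to 141 (without knockout 3), with 2 without control 1 or control 2 and 3 without knockout 1. The calls of Pdk4 and Usp21 were lost with log2 of FPKM plus 1 (adjusted p = 0.0657 for each) or plus 0.1 (0.0552 for each) and with the replicate block (0.171 and 0.2003). The direction of Foxo1, Foxo4, Cdkn1a, Ddit4, Klf15, Txnip and Sesn1 held in all 15 alternatives. The value of Foxo6 turned to -0.018 and -0.014 with FPKM plus 1 and plus 0.1, -0.029 without control 2 and -0.15 without control 3, that of Gadd45a to -0.00088 without knockout 2 and that of Foxo3 to -0.044 without knockout 3, with 0.26, 0.44 and 0.26 at the upper end (Foxo6 without control 1, Gadd45a without control 3, Foxo3 without knockout 2); the cause was not tested. The Foxo1 share differed by 8.47 to 10.04 percentage points without single libraries and by 12.4 with counts; TPM gives the same share as FPKM. With the replicate block 0 genes were called. Correlations of deviations across genes were -0.0082, -0.19 and -0.098 for same-numbered libraries. For the other pairs of a control and a knockout they ran from -0.084 to 0.18. Deviations within a group of 3 sum to 0, so these values cannot decide whether mice were paired. The main fit did not take the numbers to pair the mice.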

Other observations

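Close relatives of the 6 fasting-linked genes, and partners of Txnip, were measured beside them. Of 16, 7 had positive and 9 negative log2 fold changes (median -0.048), and none was called by edgeR. At an unadjusted p under 0.05, 1 stood higher and 3 lower, where 6.56% and 5.07% of all genes tested did. The groups did not overlap for 1 with knockouts above and 3 with knockouts below (8.38% and 8.87% of all genes tested). DESeq2 called 1 higher and 1 lower, where it called 1.52% and 0.578% of its genes. Ddit4l, a paralog of Ddit4 found in muscle, was at 197, 177 and 206 CPM in controls 1 to 3 and at 147, 147 and 124 CPM in knockouts 1 to 3, lower in 3 of 3 (-0.47, SE 0.10, edgeR adjusted p = 0.241; DESeq2 adjusted p = 0.00792). It thus lay below the controls and was even among the mice, where Ddit4 was above them on average and uneven; the difference between the 2 genes was not tested. Arrdc3, an arrestin-domain relative of Txnip, was at 33.0, 38.6 and 45.7 CPM in controls 1 to 3 and at 53.8, 71.7 and 80.1 CPM in knockouts 1 to 3 (0.81, SE 0.17, edgeR adjusted p = 0.241; DESeq2 adjusted p = 0.00161). Arrdc4, another arrestin-domain relative of Txnip, averaged 8.51 CPM in control and 8.14 CPM in knockout muscle (-0.065, edgeR adjusted p = 0.908). It was chosen after its values were seen. So was the sestrin Sesn2, with means of 3.45 and 2.26 CPM, lower in 3 of 3 (-0.62, edgeR adjusted p = 0.369).

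Of the 10 genes, 4 overlap an annotated gene on the opposite strand, and whether the authors counted reads by strand is not given here. If not, their reads cannot be told apart. In GENCODE M21 (GRCm38) Foxo1 shares 674 of 8665 exonic bases with Gm20402, Cdkn1a 273 of 3553 with AC167363.2, Gadd45a 337 of 1764 with E230016M11Rik and Txnip 606 of 3123 with Gm15441. Of these partners 2 had rows of their own. Gm15441 averaged 0.451 ± 0.219 CPM in control and 0.349 ± 0.0412 CPM in knockout muscle, and E230016M11Rik 0.398 ± 0.0836 and 0.365 ± 0.208 CPM (SD, n = 3 each), far below Txnip and Gadd45a in every library.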
